A study of Saccharomyces cerevisiae with 10 samples.

Results

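The genes described here are 9 budding yeast genes that serve the breakdown of aromatic amino acids, arginine and proline. Among them are an activator (ARO80), a permease (PUT4) and an enzyme that degrades urea (DUR1,2). They were named by their systematic open reading frames: ARO9 (YHR137W), ARO10 (YDR380W), ARO80 (YDR421W), CAR1 (YPL111W), CAR2 (YLR438W), PUT1 (YLR142W), PUT2 (YHR037W), PUT4 (YOR348C) and DUR1,2 (YBR208C). Of these 9, 8 were measured among 5983 rows, each with a value on all 10 arrays, and PUT4, the high-affinity proline permease, was not analysed here. The set was chosen by a list of names drawn up with the heat values of these arrays known, in which ARO10, ARO9 and CAR2 stood among the largest increases. Levels over the heat course are therefore given as a description, without a test. The difference between the strains was not used to choose the genes and was tested.

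Two-channel arrays measured total RNA of Saccharomyces cerevisiae during a heat shock. A strain with KIN82 deleted (delKIN82) and strain DBY8778, taken as the wild type, were each sampled at 0, 5, 15, 30 and 60 min, with 1 array per strain and time. KIN82 encodes a protein kinase linked to the control of plasma membrane lipid flippases. The sources used here do not give the temperature, the medium, the parent of the deletion strain or whether 1 culture was sampled repeatedly. In delKIN82 the 0 and 60 min arrays are titled as repeats. The DBY8778 titles carry a number after the words heat shock, the delKIN82 titles carry none, and its meaning is not stated. The titles name no time course that holds both strains, so strain and time course cannot be told apart. The deletion was not checked on the arrays, since KIN82 was not analysed here.

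Yeast uses these routes to draw nitrogen from amino acids. In the Ehrlich pathway the aromatic aminotransferase Aro9 moves the amino group of tryptophan, phenylalanine or tyrosine to an acceptor, and the decarboxylase Aro10 turns the resulting keto acid into an aldehyde, which is then reduced or oxidised to a fusel alcohol or acid. Arginase, Car1, splits arginine into ornithine and urea, the transaminase Car2 carries ornithine towards proline, and Put1 and Put2 oxidise proline to glutamate in the mitochondria, while Dur1,2 degrades the urea. Transcription of such genes is held down when preferred nitrogen sources are plentiful, through the GATA factors Gln3, Gat1, Dal80 and Gzf3, and is raised by pathway activators such as Aro80 and Put3.

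Values are log2 ratios over a common reference RNA, with each array centred on its median. A value of 1 therefore means a ratio 2-fold above that of the median gene of the array, and levels of different genes cannot be compared. Each array held values for 5844 to 5949 genes. The direction of the ratio was not stated and is likely sample over reference, since all 25 Hsf1-dependent chaperones with values in delKIN82 and all 24 in DBY8778 were higher at 15 than at 0 min. No pair of arrays correlated below 0.36 across genes. Between the strains, arrays of the same time were at r = 0.69, 0.71, 0.86, 0.78 and 0.65 at 0, 5, 15, 30 and 60 min. The DBY8778 arrays of 5 and 30 min were closer to the delKIN82 15 min array (0.79 and 0.83). That of 60 min was closer to the delKIN82 30 min array (0.71). Whether equal times stand for like stages of the response in the 2 strains was not tested. The base of the logarithm was not stated either and was read as 2, and a natural logarithm would make every log2 value larger by a factor of 1.44.

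Heat was followed by high levels of both Ehrlich pathway enzymes in both strains. ARO10, the phenylpyruvate decarboxylase, stood at 0.38, 2.70, 3.75, 3.51 and 0.67 at 0, 5, 15, 30 and 60 min in delKIN82, and at -0.27, 3.29, 4.74, 2.91 and 0.75 in DBY8778. All 8 arrays of heated cells lay above both 0 min arrays. The 15 min level was 10.4-fold above 0 min in delKIN82 and 32.2-fold above it in DBY8778. At 60 min ARO10 was 1.23-fold above 0 min in delKIN82 and 2.02-fold above it in DBY8778.

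ARO9, the inducible aromatic aminotransferase, stood at 0.997, 3.02, 4.53, 3.52 and 1.14 in delKIN82 and at 0.34, 4.16, 4.68, 3.16 and 0.40 in DBY8778. Both strains were highest at 15 min, 11.5-fold above 0 min in delKIN82 and 20.2-fold above it in DBY8778. By 60 min both were within 0.15 of their own 0 min value, and the DBY8778 array at 60 min lay below the delKIN82 array at 0 min. The first 5 min held 57.3% of the log2 increase to the 15 min level in delKIN82 and 87.9% in DBY8778. Each of these shares rests on 3 arrays of 1 strain, and the difference between them was not tested.

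The transcript of their activator stayed closer to its unheated level. ARO80, the zinc cluster transcription factor that turns on ARO9 and ARO10, stood at 0.12, 0.38, 0.80, 0.44 and 0.00 in delKIN82 and at 0.31, 0.58, 0.80, 0.85 and 0.24 in DBY8778. Its highest level was 1.61-fold above 0 min in delKIN82, at 15 min, and 1.46-fold above it in DBY8778, at 30 min. In the fit over both strains the mean of 5, 15, 30 and 60 min minus 0 min, called the heat average from here on, was 0.30 ± 0.22 (SE) for ARO80, against 2.74 ± 0.30 for ARO10 and 2.41 ± 0.31 for ARO9.

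**Figure D1:**
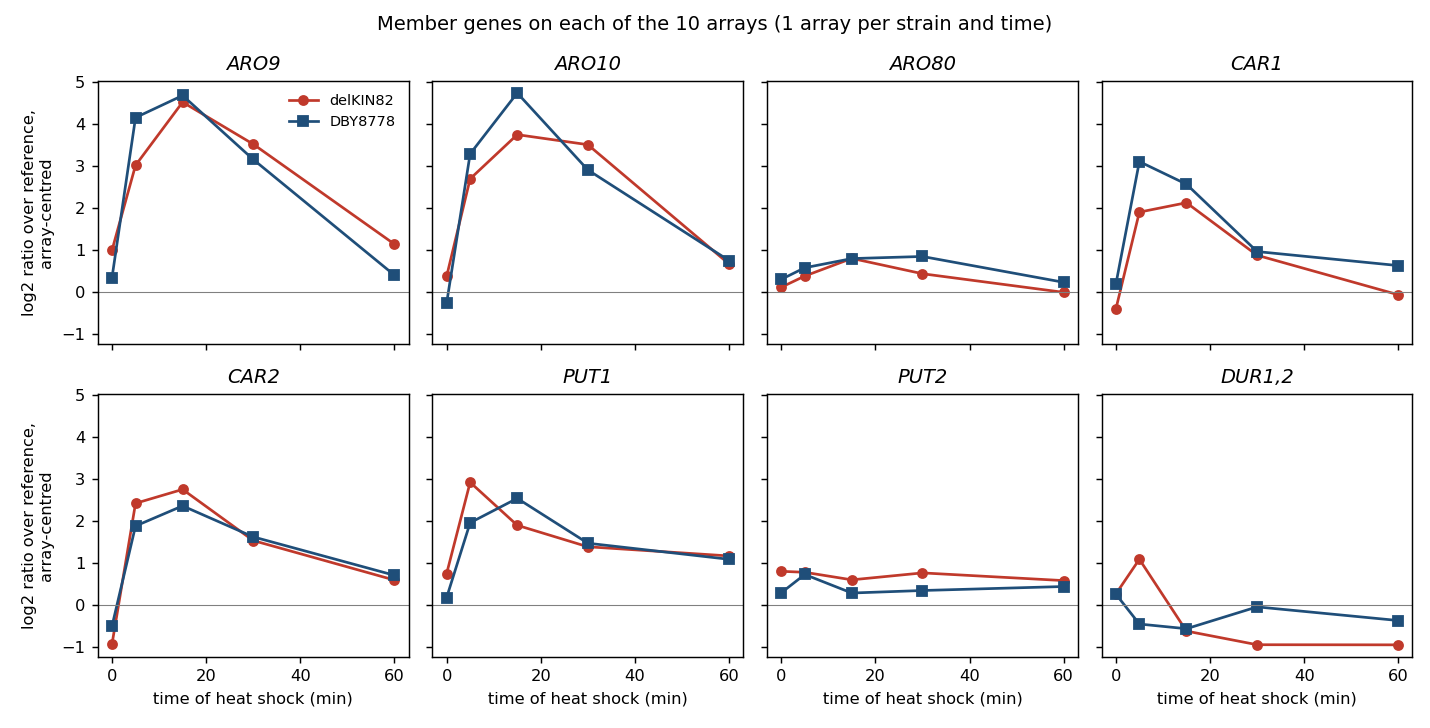
Array-centred log2 ratio over the reference (vertical axis) against time of heat shock in minutes (horizontal axis) for the 8 measured genes, with 1 point per array, circles for delKIN82 and squares for DBY8778. ARO9 and ARO10 reach between 3.75 and 4.74 at 15 min in both strains, whereas ARO80 stays at or below 0.85 and PUT2 at or below 0.81.

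Of the arginine route, both enzymes lay above their own 0 min level at every heated time in both strains, by the least at 60 min. CAR1, arginase, stood at -0.41, 1.91, 2.13, 0.88 and -0.06 in delKIN82 and at 0.19, 3.11, 2.57, 0.97 and 0.63 in DBY8778. The highest value was 5.80-fold above 0 min in delKIN82, at 15 min, and 7.59-fold above it in DBY8778, at 5 min. Between 15 and 30 min CAR1 dropped by 1.25 in delKIN82 and by 1.60 in DBY8778, and at 60 min 1.27-fold and 1.36-fold over 0 min were left.

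CAR2, ornithine transaminase, was the gene with the largest share of its log2 increase left at 60 min, in both strains. It stood at -0.93, 2.43, 2.76, 1.54 and 0.60 in delKIN82 and at -0.50, 1.89, 2.37, 1.63 and 0.71 in DBY8778. All 8 heated arrays lay above both 0 min arrays. The 15 min value was 12.9-fold above 0 min in delKIN82 and 7.29-fold above it in DBY8778. At 60 min CAR2 was still 2.88-fold above 0 min in delKIN82 and 2.32-fold above it in DBY8778, which is 41.4% and 42.3% of the log2 increase. Its change from 0 to 60 min over both strains, 1.37 ± 0.31 (SE), ranked 25 of 5744 genes, while that of ARO9, 0.10 ± 0.39, ranked 2317.

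DUR1,2, urea amidolyase, which degrades the urea that arginase releases, did not follow CAR1. It stood at 0.27, 1.09, -0.62, -0.94 and -0.94 in delKIN82 and at 0.27, -0.45, -0.56, -0.04 and -0.37 in DBY8778. From 15 min on all 6 arrays lay below the 0 min arrays, and at 5 min the strains stood on opposite sides of them. The heat average was -0.62 ± 0.34 (SE), and between -0.86 without the delKIN82 5 min array and -0.38 without the DBY8778 5 min array.

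The proline enzymes parted. PUT1, proline oxidase, the first step, stood at 0.75, 2.93, 1.90, 1.39 and 1.17 in delKIN82 and at 0.18, 1.96, 2.54, 1.48 and 1.09 in DBY8778. All 8 heated arrays lay above both 0 min arrays. The peak was at 5 min in delKIN82, 4.52-fold above 0 min, and at 15 min in DBY8778, 5.14-fold above it. PUT2, pyrroline-5-carboxylate dehydrogenase, the second step, stood at 0.81, 0.78, 0.60, 0.77 and 0.59 in delKIN82 and at 0.30, 0.73, 0.29, 0.35 and 0.45 in DBY8778. Its heated arrays overlapped the 0 min arrays, and the heat average was 0.02 ± 0.22 (SE, -0.12 to 0.16 with 1 array left out), against 1.34 ± 0.28 for PUT1.

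**Figure D2:**
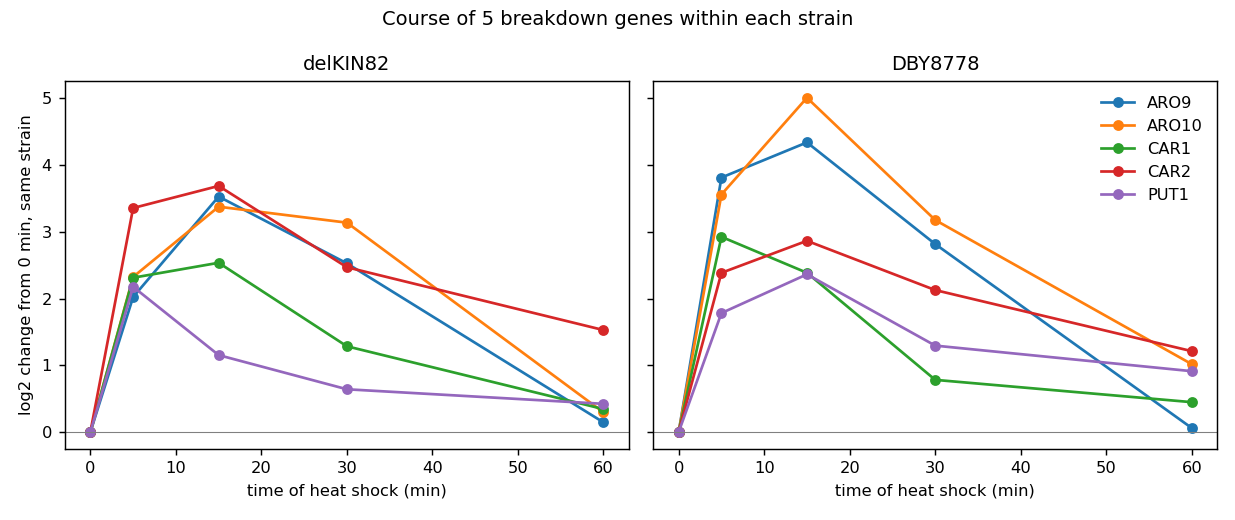
Log2 change from the 0 min array of the same strain (vertical axis) against time in minutes (horizontal axis) for ARO9, ARO10, CAR1, CAR2 and PUT1, with delKIN82 in the left panel and DBY8778 in the right one and 1 array per point. At 60 min CAR2 is highest in both panels, at 1.53 in delKIN82 and 1.21 in DBY8778, and ARO9 is lowest, at 0.15 and 0.06.

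Over the 8 genes the median heat average was 1.49, against 0.03 over all genes tested, and 5 of the 8 were at 1 or more, as were 3.23% of all genes. Since the set was named with the heat values known, this excess follows in part from the choice and was not tested. These 5 were ARO10, CAR2, ARO9, CAR1 (1.63 ± 0.24) and PUT1. The other 3, ARO80, PUT2 and DUR1,2, belong to 338 rows in which no value carries more than 2 decimals. Why those rows differ is not stated. The median absolute heat average was 0.24 in those rows and 0.31 in the others, and the part of this difference in the low values of the 3 genes was not tested.

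Profiles were set side by side over the 10 arrays as a description. All arrays share the reference and the heat course. ARO9 and ARO10 had Pearson's r = 0.97, and ARO80 had r = 0.82 with each of them. CAR1 and CAR2 were at r = 0.84 and CAR2 and PUT1 at r = 0.87, while PUT1 and PUT2 were at r = 0.21 and CAR1 and DUR1,2 at r = -0.06. Among 5162 other genes with a value on all arrays, those most like ARO10 were PEP4 and PRX1 (r = 0.97 each), QCR2 (0.95), IML2 and GRX1 (0.94 each). Those most like CAR2 were HCH1, IRC4 and PTK2 (0.96 each), INH1 and GRX1 (0.95 each). Those most like PUT1 included FAA1 (0.96), AQY3, MRM2 and ENA1 (0.88 to 0.89). These names depended on the scaling, since after quantile normalization only 1 of the 5 was shared for ARO10, 3 for CAR2 and 1 for PUT1.

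Whether the level of these genes differed between delKIN82 and DBY8778 was tested over the 5 times together, in limma with Benjamini-Hochberg adjustment over 5744 genes. None of the 8 passed an adjusted p of 0.05, while 12% of all genes did (6.6% higher and 5.38% lower in delKIN82). An unadjusted p under 0.05 was held by 1592 of the 5744 genes and by 1 of the 8. That gene was CAR1, which was lower in delKIN82 at all 5 times, by -0.59, -1.20, -0.44, -0.09 and -0.70 at 0, 5, 15, 30 and 60 min. It averaged 0.89 in delKIN82 and 1.49 in DBY8778, a difference of -0.60 ± 0.19 (SE, 95% interval -1.02 to -0.19), or 1.52-fold (limma adjusted p = 0.0564). The adjusted p lay between 0.0386 and 0.715 over 20 alternatives, of which 1 passed, and the direction was the same in all 20. With all 5 pairs below 0, leaving out arrays could not turn it.

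PUT2 was higher in delKIN82 at all 5 times, by 0.05 to 0.51, with a mean difference of 0.29 ± 0.18 (95% interval -0.09 to 0.66, limma adjusted p = 0.308). ARO80 was lower in delKIN82 at 4 of 5 times, with a mean difference of -0.21 ± 0.17 (95% interval -0.58 to 0.16, limma adjusted p = 0.474). For the other 5 genes the strains crossed during the course. The mean differences were 0.09 ± 0.25 for ARO9 (95% interval -0.43 to 0.62), -0.09 ± 0.24 for ARO10 (-0.59 to 0.42), 0.06 ± 0.19 for CAR2 (-0.35 to 0.47), 0.18 ± 0.22 for PUT1 (-0.30 to 0.65) and 0.00 ± 0.28 for DUR1,2 (-0.59 to 0.59). The intervals of ARO9, ARO10, PUT1 and DUR1,2 reach 0.59 or farther from 0 in at least 1 direction, about the difference seen for CAR1. After quantile normalization ARO9 was higher in delKIN82 by 0.86 ± 0.22, and this passed (limma adjusted p = 0.0364, and 0.0364 to 0.975 in the 20 alternatives). The spread of the log ratios, as the median absolute deviation of an array, was 0.62, 0.79, 0.87, 0.75 and 0.52 in delKIN82 and 0.54, 0.78, 0.86, 0.73 and 0.54 in DBY8778 at 0, 5, 15, 30 and 60 min. This measure does not reflect the highest values of an array. Counted from the highest value, ARO9 ranked 438, 37, 11, 8 and 151 in delKIN82 and 1515, 41, 28, 47 and 1410 in DBY8778. By rank it was thus higher in delKIN82 at all 5 times. Quantile normalization works on these ranks, so they restate its result and are no separate support for it. In the centred values ARO9 differed by -1.14 at 5 min and by -0.16 at 15 min, lower in delKIN82, and was higher at the other times.

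For 5 of the 8 genes the strains lay farthest apart at 5 min, as they did for 30% of 5170 genes with a value on all arrays. DUR1,2 was higher in delKIN82 by 1.54 there, and 5.9% of all genes differed by as much or more on the same pair of arrays. CAR1 was lower in delKIN82 by -1.20 and ARO9 by -1.14, with 12.1% and 13.9% of genes at least as far apart, and PUT1 was higher by 0.96, with 19.6%. CAR2 was higher in delKIN82 by 0.54, with 43.7% of genes at least as far apart. At 15 min ARO10 was lower in delKIN82 by -0.99, with 11.9% of genes at least as far apart. Each of these differences is that of 1 pair of arrays and has no replicate.

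**Figure D3:**
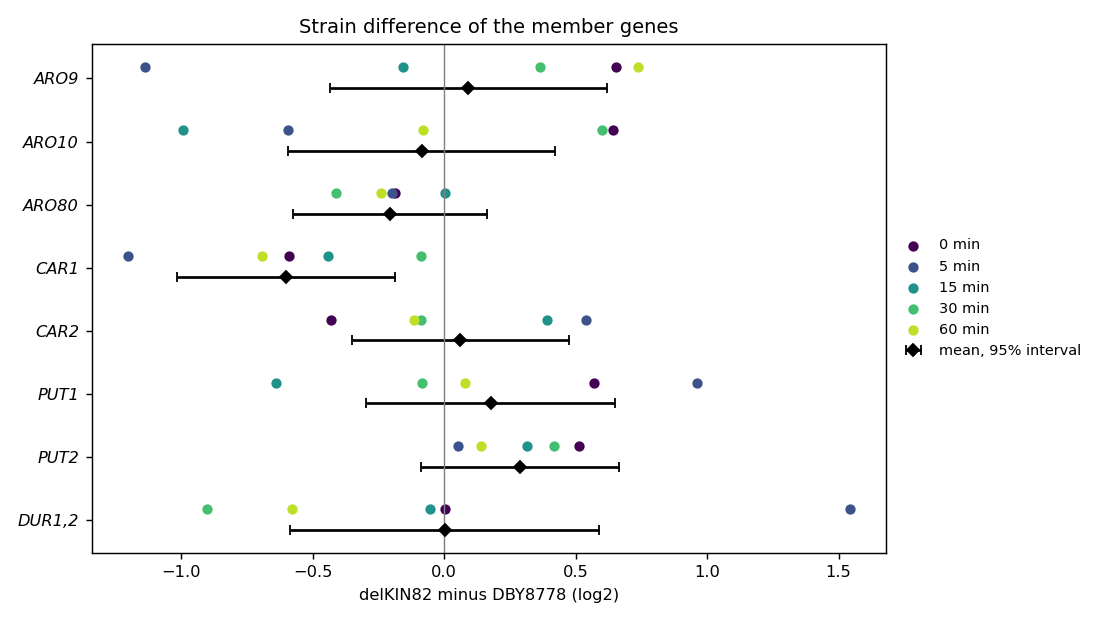
Difference of delKIN82 minus DBY8778 in log2 units (horizontal axis) for each of the 8 measured genes (rows). Coloured points are the 5 pairs of arrays, and black diamonds with bars are the limma mean over times with its 95% interval. All 5 points of CAR1 lie below 0, from -1.20 to -0.09, and all 5 of PUT2 above it, from 0.05 to 0.51, while points of ARO9, ARO10, CAR2, PUT1 and DUR1,2 lie on both sides.

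A strain by heat term asked whether delKIN82 and DBY8778 responded differently to heat. It compares the mean change from 0 min in the 2 strains and relies on a single pair of 0 min arrays, of which the delKIN82 array is titled a repeat. No gene of the set passed and none had an unadjusted p under 0.05. Over all 5744 genes limma called 0%, with 130 at an unadjusted p under 0.05. The mean change of ARO10 was 2.28 in delKIN82 and 3.19 in DBY8778, a difference of -0.91 ± 0.58 (SE, 95% interval -2.14 to 0.32). That of ARO9 was 2.06 in delKIN82 and 2.76 in DBY8778, a difference of -0.70 ± 0.62 (-2.01 to 0.61). For CAR2 the difference had the opposite sign, with 2.76 in delKIN82 and 2.15 in DBY8778, a difference of 0.61 ± 0.50 (-0.45 to 1.68). For CAR1 the changes were 1.62 in delKIN82 and 1.64 in DBY8778, a difference of -0.02 ± 0.53 (-1.13 to 1.10). The limma adjusted p of all 8 genes was at least 0.999.

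The rest of nitrogen metabolism was described through 7 lists that hold 88 other genes, of which 80 were tested. The lists were drawn up with earlier results of these data known, so the shares called in them are a description. In the heat average 5 rose and 16 fell in limma, or 26.2% called, against 16.1% of all genes tested (5.76% higher and 10.3% lower), and the median of the 80 was -0.12. The split depended on the scaling, with 10 higher and 14 lower after quantile normalization and 8 higher and 17 lower with equal median absolute deviation. These counts rest on the unheated arrays: without the DBY8778 0 min array 4 were called, and without the delKIN82 0 min array 10. Of 18 called genes that are named, 15 lost the call without the first of these arrays (all but BAT1, ARG3 and HIP1) and 8 without the second (ARO2, ARO3, PRO1, UGA2, BAP3, HIP1, GLN1 and GNP1).

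Among 16 other genes of the Ehrlich pathway 1 rose and 3 fell. BAT2, the cytosolic branched-chain aminotransferase, rose by 1.23 ± 0.26 (limma adjusted p = 0.00341), and BAT1, its mitochondrial paralogue, was at -1.87 ± 0.26 (adjusted p = 0.000273). BAT2 stood at 0.37, 0.67, 1.36, 2.48 and 0.87 in delKIN82 and at -0.17, 0.80, 1.90, 1.84 and 0.77 in DBY8778, so that it peaked at 30 min in delKIN82 and at 15 min in DBY8778. The alcohol acetyltransferase ATF2 (-1.24 ± 0.28) and the weak acid exporter PDR12 (-1.02 ± 0.23) fell. The other aromatic aminotransferase, ARO8, did not pass (-0.20 ± 0.25), nor did the decarboxylase genes PDC1, PDC5, PDC6 and THI3 (-0.48 to -0.13).

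Of 11 genes of aromatic amino acid synthesis 0 rose and 3 fell in limma (0 higher at an unadjusted p under 0.05), and 2 of the 11 had a positive value. ARO4 and ARO3, the paired enzymes of the first step, were at -1.65 ± 0.28 and -1.06 ± 0.22, and ARO2, chorismate synthase, at -0.95 ± 0.25. Of 9 genes of arginine and proline synthesis 1 rose and 1 fell. ARG3, ornithine carbamoyltransferase, which uses the ornithine that arginase also makes, rose by 1.72 ± 0.24 (limma adjusted p = 0.000271), and PRO1, glutamate kinase, was at -0.90 ± 0.24 on 9 arrays. ARG3 stood at -0.94, 1.02, 1.33, 1.36 and 0.55 in delKIN82 and at -0.58, 1.01, 0.69, 1.05 and 0.66 in DBY8778. BAT1 and ARG3 passed in all 17 alternatives of the heat average.

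**Figure D4:**
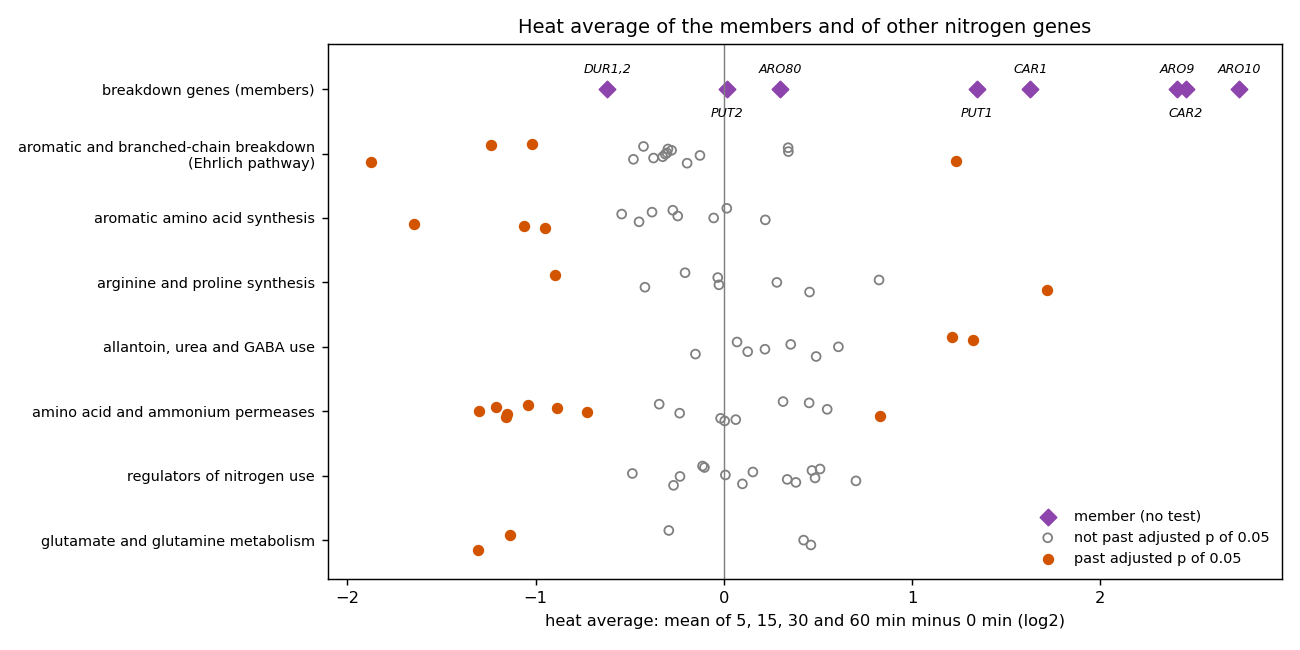
Heat average in log2 units (horizontal axis) of the 8 measured genes of the set (diamonds, not tested) and of 80 other nitrogen genes in 7 lists (rows). Filled circles are past a limma adjusted p of 0.05 and open circles are not. The 5 highest genes of the set lie between 1.34 and 2.74, and the highest of the other genes, ARG3, lies at 1.72. The set was named with the heat values known.

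Of 9 genes for allantoin, urea and GABA use 2 rose and 0 fell in limma (0 lower at an unadjusted p under 0.05), and 8 had a positive value. UGA1, GABA transaminase, rose by 1.32 ± 0.23 and stood at 0.78, 1.66, 2.39, 2.23 and 1.72 in delKIN82 and at 0.32, 1.39, 1.93, 1.74 and 1.90 in DBY8778. UGA2, succinate semialdehyde dehydrogenase, rose by 1.21 ± 0.29 on 8 arrays. Of 16 amino acid and ammonium permeases 1 rose and 7 fell, with BAP3 at -1.30 ± 0.27, HIP1 at -1.21 ± 0.27, AGP1 at -1.15 ± 0.24 and TAT1 at -1.15 ± 0.22. HIP1 was at -0.63 ± 0.36 without the delKIN82 0 min array, where it did not pass, and at -1.79 ± 0.35 without the DBY8778 0 min array (limma adjusted p 0.00201 to 0.440 in the 17 alternatives). The one that rose, GNP1, a glutamine permease, was named after its value was seen (0.83 ± 0.24). GAP1, the general amino acid permease, was at 0.00 ± 0.25. Glutamate dehydrogenase GDH1 (-1.31 ± 0.24) and glutamine synthetase GLN1 (-1.14 ± 0.37) fell among 5 genes of glutamate metabolism. Among 14 regulators of nitrogen use 0 passed in either direction in limma. An unadjusted p under 0.05 was held by 2 of the 14, against 1624 of all 5734 genes tested. PUT3, the activator of PUT1 and PUT2, was at 0.48 ± 0.29.

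Between the strains 8 of these 80 genes were higher in delKIN82 and 1 was lower, or 11.2% called against 12% of all genes. Synthesis held 4 of the 8, as 2 of 11 tested genes of aromatic synthesis and 2 of 9 of arginine and proline synthesis. ARO2 was higher by 1.47 ± 0.20 (limma adjusted p = 0.00122) and stood at 0.95, 0.74, -0.69, -0.41 and 0.51 in delKIN82, against -0.45, -1.45, -2.03, -1.48 and -0.83 in DBY8778. The delKIN82 array was the higher one at all 5 times. TRP5, tryptophan synthase, was higher by 0.62 ± 0.18, PRO1 by 0.96 ± 0.21 and PRO2, which follows Pro1 in proline synthesis, by 0.91 ± 0.18. The others were ADH3 (0.91 ± 0.20), ARO8 (0.72 ± 0.20), the methionine permease MUP1 (0.85 ± 0.19) and the GATA factor GZF3 (0.74 ± 0.22), and the acidic amino acid permease DIP5 was lower by -1.06 ± 0.26. ARO8, at 1.04, 1.43, 0.66, 0.60 and 0.40 in delKIN82 and 0.20, 0.00, 0.13, 0.01 and 0.18 in DBY8778, was higher in delKIN82 at every time, whereas ARO9 was higher there at 3 of 5. With either array of 1 time left out the count was between 5 and 7. In the 5, 15 and 30 min pairs alone 5 were called, and in the 0 and 60 min pairs alone 4. The genes called differed between these fits. Of those called over all 5 times, ARO2 and MUP1 kept the call in the 0 and 60 min pairs. The others lost it there (PRO2 at limma adjusted p = 0.147). ARO2 and PRO2 passed with each single array left out, and the other 7 lost the call with at least 1 array left out.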

How the data were processed

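The deposited table holds 1 log ratio per open reading frame and array, read as log2 from its range. Nothing used here states the log base or the scanner, dyes, background correction, normalization and filters of the authors. Symbols were matched by locus tag to RefSeq (assembly R64). No coordinates are given because no build is named for the arrays, and promoter and protein sequences were not used here.

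Arrays were median-centred. Genes present on both unheated arrays and on at least 8 of 10 in all entered limma 3.58.1 (R 4.3.3, lmFit and eBayes), with strain and a time factor as terms, leaving 4 residual degrees of freedom (prior 11.0). A second fit with 3 added the strain by heat term. Benjamini-Hochberg adjustment ran over all genes tested. In the first fit P-values set a strain or heat difference against departures from additive strain and time effects, since no strain and time has a second array. They do not measure variation between cultures.

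Members and gene lists were chosen with earlier results of these data known. From the lists, called genes with the lowest p are named, at most 4 per list and comparison, and GNP1 was added after its value was seen. Genes most like ARO10, CAR2 and PUT1 are the 5 with the highest Pearson's r, of which 1 is not reported here. The number of arrays limits the precision.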

Additional observations from a re-analysis of the deposited data

How the results depend on the processing

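CAR1, PUT2 and ARO80 kept the direction of their strain difference in all 20 alternatives, and no member passed in 18 of them. The 20 were not independent checks. Some returned the estimate of the fit reported, as with another eBayes setting or no time term. Leaving out either array of 1 time gave the same estimate. For CAR1 and PUT2 all 5 pairs had the same sign, so leaving out arrays could not turn it. One member passed after scaling to equal median absolute deviation (1 called, CAR1) and 1 after quantile normalization (ARO9). Directions that turned belonged to values that did not pass in the fit reported. With equal median absolute deviation the strain difference of DUR1,2 was -0.070, and the strain by heat differences were 0.038 for ARO80 and 0.080 for CAR1. After quantile normalization the strain differences were 0.46 for ARO10 and -0.11 for DUR1,2, and the strain by heat differences 0.18 for ARO9, 0.084 for ARO80 and 0.36 for CAR1. Without both arrays titled repeat, and in the 5, 15 and 30 min pairs alone, ARO9 was at -0.31. In the 0 and 60 min pairs alone ARO10 was at 0.28, CAR2 at -0.27 and DUR1,2 at -0.29. With 1 array left out at a time, the strain difference ranged from -0.069 to 0.40 for ARO9, -0.27 to 0.14 for ARO10, -0.06 to 0.18 for CAR2, -0.019 to 0.38 for PUT1 and -0.38 to 0.23 for DUR1,2. The strain by heat difference ranged from -0.095 to 0.044 for ARO80, -0.19 to 0.18 for CAR1 and -0.51 to 0.30 for DUR1,2. The cause of these changes was not tested.

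For the 80 genes of the nitrogen lists, the strain count of 9 was 5 to 7 with 1 array left out, 5 without both arrays titled repeat, 5 in the 5, 15 and 30 min pairs, 4 in the 0 and 60 min pairs and 0 with no time term. The heat count of 21 was 4 to 22 with 1 array left out and 9 without both arrays titled repeat. Without centring, 65.5% of the strain calls over all genes were higher in delKIN82, against 55.1% with it. The strain by heat term could not be fitted without a 0 min array. The time term pairs the arrays of both strains by time. The labels give no replicate numbers, so no further block was fitted.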
